A study of Mus musculus with 7 samples.

Results

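The miR-34 and miR-449 family was followed by the 7 mature strands mmu-miR-34a-5p, mmu-miR-34b-5p, mmu-miR-34b-3p, mmu-miR-34c-5p, mmu-miR-34c-3p, mmu-miR-449a-5p and mmu-miR-449c-5p (written without the mouse prefix from here on), taken by name from 1908 mature mouse miRNAs in 7 small RNA libraries of sorted embryonic spinal cells. The family was picked because miR-449a-5p stood high in V2a interneurons at E12.5, so the levels at that stage are given as a description. At E10.5, 2 libraries came from GFP-positive motoneurons and 2 from the GFP-negative remainder of dissociated Hb9::gfp spinal cords, in which the reporter marks cells that express the motoneuron factor Hb9. At E12.5, 1 library each came from tdTomato-positive V2a interneurons (Chx10::cre with Rosa26::LSL::tdTomato), GFP-positive Hb9::gfp motoneurons and tdTomato-positive V3 interneurons (Sim1::cre with Rosa26::LSL::tdTomato). A Cre reporter of this kind marks any cell with a history of Cre expression. The labels give neither the number of embryos in a library nor whether replicates came from separate litters, and the spread behind each p-value is that of these libraries alone, which could be technical.

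miRNAs bind messenger RNAs largely through the seed, bases 2 to 8 from the 5′ end, and lower the output of those messages. The miR-34 genes are known as targets of the tumour suppressor p53 that slow cell division. The miR-34b/c and miR-449 genes are also known for their part in the formation of motile cilia in multiciliated cells, and miR-449 lies within Cdc20b, a gene of such cells.

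The mature sequences are shown because the family is defined by its seed, which stands in capitals. In RefSeq (GRCm38.p6) sequences, 4 mature miRNAs held the seed GGCAGUG, all of them members of the family. The seed AUCACUA was held by 2, the 3p strands of Mir34b and Mir34c. miR-34c-5p has no mature sequence in that set, so it is not shown and its seed was not read.
miR-34a-5p: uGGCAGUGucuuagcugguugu
miR-34b-5p: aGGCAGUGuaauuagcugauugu
miR-449a-5p: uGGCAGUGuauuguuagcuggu
miR-449c-5p: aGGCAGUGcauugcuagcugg
miR-34b-3p: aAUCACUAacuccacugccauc
miR-34c-3p: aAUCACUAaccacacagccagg
Compared position by position, seed included, miR-449a-5p and miR-449c-5p shared 18 of 21 bases, miR-34a-5p and miR-449a-5p shared 15 of 22, and miR-34b-3p and miR-34c-3p shared 17 of 22. The Mir34b and Mir449a hairpins are shown with both mature strands in capitals, because the 2 strands of Mir34b changed places between the tables and because Mir449a gives the strand on which the family was picked.
Mir34b: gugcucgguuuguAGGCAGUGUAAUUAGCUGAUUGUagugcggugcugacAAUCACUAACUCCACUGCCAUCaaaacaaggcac
Mir449a: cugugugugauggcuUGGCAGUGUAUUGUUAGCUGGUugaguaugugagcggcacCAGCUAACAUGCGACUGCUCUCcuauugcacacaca

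The hairpins lie at 3 places in that build. Mir34a is on the plus strand at chr4:150068454-150068555, within an exon of the unclassified GENCODE M21 gene Gm37795. Mir34b (chr9:51103562-51103645) and Mir34c (chr9:51103034-51103110) lie on the minus strand, 451 bases apart, inside an intron of Btg4, which is read from the opposite strand. Mir449c (chr13:113035983-113036091) and Mir449a (chr13:113037534-113037624) lie on the plus strand, 1442 bases apart, in an intron of Cdc20b on the same strand.

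The sort was checked on miR-218-5p, the motoneuron miRNA named in the series title. It stood at 177885 and 200305 RPM in the E10.5 motoneuron libraries, against 6623 and 7315 RPM in the non-motoneuron libraries, and at 104198 TPM in E12.5 motoneurons, against 7558 TPM in V2a and 7282 TPM in V3. The E12.5 libraries held 3604158 to 4605636 reads and the E10.5 libraries 493228 to 802724. RPM are reads per 1000000 assigned to miRNAs, and TPM at E12.5 are length-corrected values per 1000000, so the 2 scales were not compared by a test.

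At E10.5 both 5p strands of the miR-34b/c cluster, the 2 members that could be tested, were lower in motoneurons than in the other spinal cells. miR-34c-5p, the strand with the highest level of the family in every library, stood at 196 and 152 RPM in motoneurons, against 529 and 444 RPM in non-motoneurons. The groups did not overlap, and the higher motoneuron library lay below the lower non-motoneuron library by more than the spread within either group. The means were 174 ± 30.8 RPM in motoneurons and 486 ± 60.0 RPM in non-motoneurons (SD, n = 2 each), and the log2 fold change was -1.48 with an SE of 0.24 (limma adjusted p = 0.00352). miR-34b-5p, from the neighbouring hairpin, stood at 56.1 and 38.5 RPM in motoneurons, against 138 and 165 RPM in non-motoneurons. Its groups did not overlap either, and the log2 fold change was -1.68 with an SE of 0.33 (limma adjusted p = 0.00651). Among all 1270 miRNAs with a read at E10.5, 28.4% had both motoneuron libraries below both non-motoneuron libraries. Fold changes here are on the log2(RPM + 1) scale.

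The 2 tested members stand against a broad background: of 492 miRNAs tested by limma, 42.3% passed an adjusted p of 0.05, with 30.7% called lower in motoneurons and 11.6% higher, and the median log2 fold change was -0.34. The counts were 57 higher and 151 lower, or 105 and 115 when libraries were scaled without their 5 most abundant miRNAs, and 85 and 118 with the median of ratios. On simulated libraries rescaled to totals, as RPM are, this test made more false calls than its threshold allows, and it did not after scaling by the median of ratios or TMM. With the median of ratios, miR-34c-5p had -1.21 (limma adjusted p = 0.0129) and miR-34b-5p -1.40 (limma adjusted p = 0.0147) on the log2 scale, so both calls stayed. miR-34c-5p lay 1.15 and miR-34b-5p 1.34 below the median of all tested miRNAs on the log2 scale (log2fc minus median -1.15 and -1.34). Ordered from the lowest fold change, miR-34b-5p was at place 72 and miR-34c-5p at place 93 of 492, so both fell within a broad group of lower miRNAs. Both passed the abundance minimum of 15.2 RPM in all 4 libraries.

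**Figure D1:**
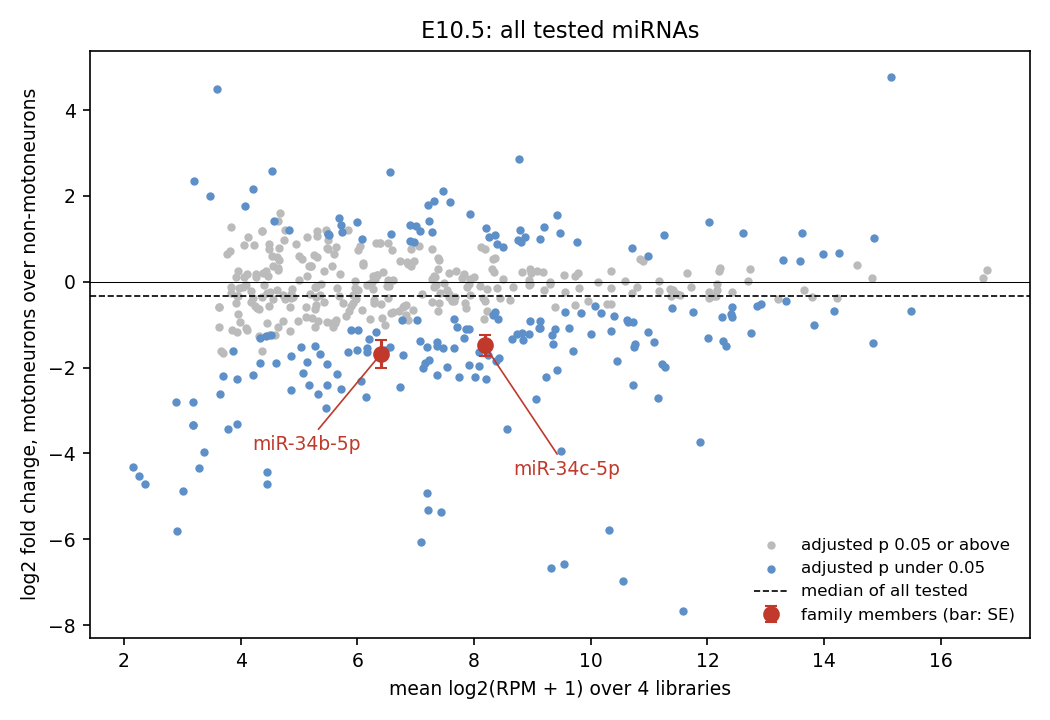
Log2 fold change of motoneurons over non-motoneurons at E10.5 (vertical axis) against the mean log2(RPM + 1) of 4 libraries (horizontal axis) for 492 tested miRNAs, with the 2 tested family members in red and their SE as bars. miR-34b-5p at -1.68 and miR-34c-5p at -1.48 lie below the dashed median of -0.34, among many other called miRNAs.

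The 3p strands of the same hairpins stood at under 15 RPM, below the minimum in every library, and were not tested. miR-34b-3p had 3.74 and 4.05 RPM in motoneurons, against 9.0 and 13 RPM in non-motoneurons. miR-34c-3p had 6.23 and 4.05 RPM in motoneurons, against 10.3 and 11.1 RPM in non-motoneurons. Neither overlapped between groups, which held in this direction for 28.4% of all 1270 miRNAs with a read. The values rest on 5 and 7 reads in motoneurons and 14 and 14 reads in non-motoneurons. Their motoneuron over non-motoneuron ratios of pooled reads, 0.363 for miR-34b-3p and 0.508 for miR-34c-3p, had 95% counting intervals of 0.102 to 1.07 and 0.173 to 1.34. Counting intervals leave out all other error, and PCR copies of 1 molecule count as separate reads in them.

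The miR-449 strands were read at E10.5 in non-motoneurons only. miR-449a-5p was at 0 in both motoneuron libraries, against 2.57 and 24.1 RPM in non-motoneurons. miR-449c-5p was at 0 in both motoneuron libraries, against 6.43 and 14.9 RPM in non-motoneurons. The floor of 3 reads over the pooled motoneuron libraries is 2.31 RPM. Pooled non-motoneuron levels were 4.92-fold above it for miR-449a-5p and 4.27-fold above it for miR-449c-5p. These folds leave out the counting error of the non-motoneuron reads. Ratios of pooled reads, motoneuron over non-motoneuron, were 0, with counting intervals of 0 to 0.283 for miR-449a-5p and 0 to 0.333 for miR-449c-5p. The miR-449a-5p value rests on non-motoneuron replicate 2, which held 13 of its 15 reads. That replicate was 9.38-fold above replicate 1, with a counting interval of 2.12 to 85.6, and without it only 2 reads remained, below the floor. miR-449c-5p had 5 reads in replicate 1 and 8 in replicate 2, a ratio of 2.31 with an interval of 0.666 to 8.97. Neither reached the minimum in 2 libraries, so neither entered the test.

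miR-34a-5p, the member best known as a p53 target, was near the limit of detection. It had 2.49 and 2.03 RPM in motoneurons, from 2 reads and 1 read, against 1.29 and 1.86 RPM in non-motoneurons, from 1 read each. It was the only member whose motoneuron libraries both lay above the non-motoneuron libraries. The other 6 members had both motoneuron libraries below both non-motoneuron libraries. Of 1270 miRNAs with a read at E10.5, 28.4% lay that way round and 16.1% the other way. Those shares include rows with very few reads, and the 6 members come from only 2 places in the genome. At this depth a difference in miR-34a-5p was not detectable, with a ratio of pooled reads of 1.52 and a counting interval of 0.175 to 18.2.

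The strands with the seed GGCAGUG and miR-34c-5p together summed to 254 and 193 RPM in motoneurons, against 677 and 650 RPM in non-motoneurons. After correction for length, miR-34c-5p made up 77.7% and 79.6% of that sum in motoneurons, against 78.8% and 69.0% in non-motoneurons, so its share overlapped between the groups. miR-34b-5p made up 21.3% and 19.3% in motoneurons, against 19.6% and 24.6% in non-motoneurons. The miR-449 strands made up 0 in motoneurons, against 0.383% and 3.75% for miR-449a-5p and 1.0% and 2.42% for miR-449c-5p in non-motoneurons.

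The summed markers of other cell types were also lower in motoneurons, beside 30.7% of all tested miRNAs called lower. Only the mesenchymal, sensory neuron and muscle lists kept all their calls with the median of ratios. All 7 mesenchymal markers were lower in motoneurons, where they summed to 1540 and 416 RPM, against 80353 and 92888 RPM in non-motoneurons, and none was at 0 in any E10.5 library. All 3 sensory neuron markers were lower, with sums of 1971 and 2325 RPM in motoneurons, against 9171 and 9535 RPM in non-motoneurons. Of 7 epithelial markers, 5 were tested and 2 were lower, or 1 with the median of ratios, with sums of 216 and 363 RPM in motoneurons, against 495 and 724 RPM in non-motoneurons. miR-141-3p was at 0 in motoneuron replicate 1 and non-motoneuron replicate 2, and miR-429-3p in motoneuron replicate 1. Both tested muscle markers were lower, with sums of 352 and 129 RPM in motoneurons, against 4173 and 3778 RPM in non-motoneurons. The 1 tested endothelial marker was lower, though not with the median of ratios, and the endothelial sums were 508 and 295 RPM in motoneurons, against 977 and 676 RPM in non-motoneurons. No blood marker passed the minimum, and their sums were 12.46 and 6.08 RPM in motoneurons, against 36 and 18.6 RPM in non-motoneurons. Of 3 general neuron markers, miR-124-3p was higher in motoneurons (2.12, limma adjusted p = 0.00181), and a second also passed with the median of ratios. The part of these cells in the lower family levels was not tested, and fewer cells that express a miRNA cannot be told apart from less of it per cell.

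Of 11 other miRNAs linked to p53 in the literature, 9 were tested at E10.5, and 3 were lower and 1 was higher in motoneurons. Those shares are near the background of 30.7% lower and 11.6% higher, so the counts say nothing particular about the list. Its median log2 fold change was -1.06, against -0.34 over all tested miRNAs. The lower ones were miR-16-5p, which restrains cyclins (-1.35, limma adjusted p = 0.00346), miR-143-3p (-5.78) and miR-145a-5p (-4.44). The last 2 are also in the mesenchymal list. miR-22-3p was higher (1.04, limma adjusted p = 0.00931), and miR-192-5p and miR-194-5p had log2 fold changes of 0.03 and 0.07.

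At E12.5 the family was again led by miR-34c-5p. The V2a over V3 ratio was highest for miR-449a-5p, the member on which the family was picked. Its interval overlapped those of miR-34b-3p, miR-34b-5p and miR-34a-5p. miR-34c-5p stood at 192 TPM in V2a, 142 TPM in motoneurons and 76.3 TPM in V3, and ranked 135, 151 and 182 among all miRNAs of these libraries. Its V2a over V3 ratio was 2.52 (95% counting interval 2.21 to 2.87), its motoneuron over V3 ratio 1.86 (1.62 to 2.15) and its V2a over motoneuron ratio 1.35 (1.21 to 1.51). Those intervals exclude 1, but they rest on read numbers at an assumed length of 22 nt that did not come out whole, and each population had 1 library, so there is no replicate check. These sizes depend on the scaling: with totals that leave out the 5 most abundant miRNAs, the motoneuron over V3 log2 ratio was 0.06 in place of 0.89, and the V2a over motoneuron log2 ratio 1.08 in place of 0.43 (0.18 with the median of ratios). The median V2a over motoneuron, V2a over V3 and motoneuron over V3 log2 ratios of 1010 miRNAs with at least 10 reads in a library were 0.34, 0.54 and 0.20, on the log2(TPM + 1) scale.

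miR-449a-5p, on which the family was picked, stood at 44.0 TPM in V2a, 3.10 TPM in motoneurons and 1.20 TPM in V3. These values rest on 198 reads in V2a, 11 in motoneurons and 5 in V3. The V2a over motoneuron ratio was 14.2 (counting interval 7.78 to 29.0), the V2a over V3 ratio 36.6 (15.4 to 114), and motoneurons and V3 did not differ beyond counting error (2.57, 0.825 to 9.46). On the log2(TPM + 1) scale it was the 1 member at least 4-fold higher in V2a than in both other libraries, a mark met by 3.56% of the 1010 miRNAs, and nothing is read from it because the family was picked on it. miR-34b-5p, from few reads, also met it with the deposited values in place of TPM, with a pseudocount of 0.1, and with totals without the 5 most abundant miRNAs. In V2a miR-449a-5p made up 18.3% of the summed level of the 5p members, against 2.10% in motoneurons and 1.54% in V3. Its 3p strand, miR-449a-3p, had 7 reads in V2a, 0 in motoneurons and 2 in V3. miR-449c-5p, the neighbour from the same intron, was at 0 in all 3 libraries. A level of 3 reads would be 0.699 TPM in V2a, 0.885 TPM in motoneurons and 0.756 TPM in V3. miR-449c-3p had 0 reads in V2a, 2 in motoneurons and 0 in V3, and miR-449b was at 0 in every library of both stages.

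Summed epithelial markers stood at 223 TPM in V2a, 60.5 TPM in motoneurons and 120 TPM in V3. Most of that level was 1 marker, miR-203-3p, with 1599 reads over the 3 libraries, against 47.0 for miR-200a-3p, the next. miR-429-3p and miR-205-5p were at 0 in V2a, miR-205-5p in motoneurons, and miR-200b-3p and miR-200c-3p in V3. Summed endothelial markers stood at 405 TPM in V2a, 177 TPM in motoneurons and 174 TPM in V3, with neither of the 2 at 0. The mesenchymal sums were 246 TPM in V2a, 195 TPM in motoneurons and 306 TPM in V3. The muscle sums were 221 TPM in V2a, 125 TPM in motoneurons and 61.1 TPM in V3. The endothelial and muscle sums had the order of miR-449a-5p and miR-34c-5p, which is also that of the median ratios given above. The epithelial and mesenchymal sums did not. The part of any of these cells in the V2a level of miR-449a-5p was not tested.

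**Figure D2:**
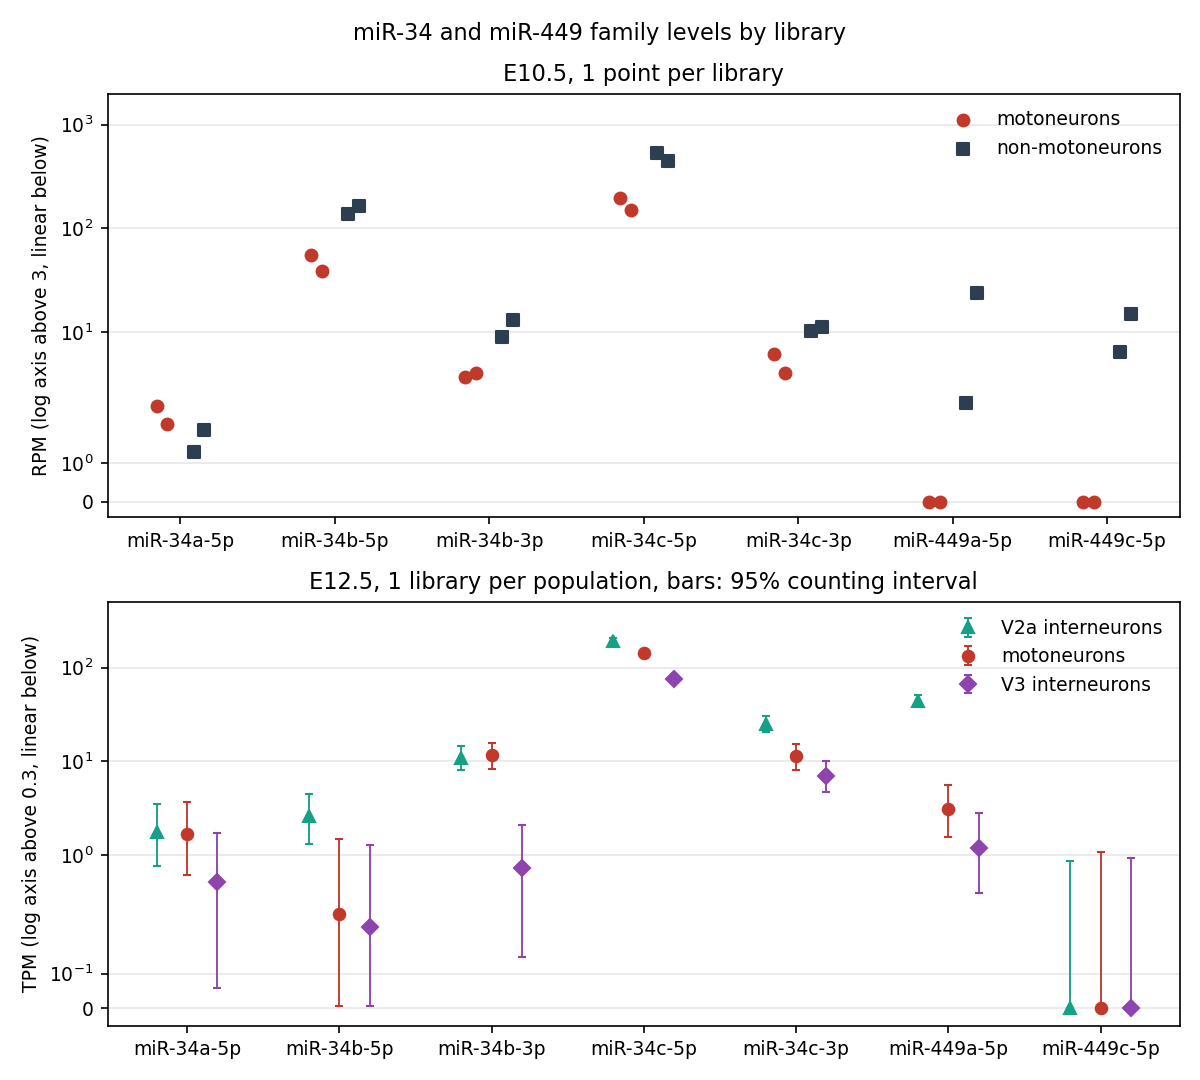
Levels of the 7 family members, at E10.5 in RPM (upper panel, 1 point per library, motoneurons left of non-motoneurons) and at E12.5 in TPM (lower panel, 1 library per population, bars are 95% counting intervals), on axes that are logarithmic except near 0. At E10.5 the 2 miR-449 strands are at 0 in motoneurons, and at E12.5 miR-449a-5p is at 44.0 TPM in V2a and at 3.10 and 1.20 TPM in motoneurons and V3.

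The strands of the miR-34b/c cluster did not share 1 order of populations at E12.5. miR-34c-3p stood at 25.1 TPM in V2a, 11.3 TPM in motoneurons and 6.97 TPM in V3, the order of miR-34c-5p, and its motoneuron over V3 ratio of 1.61 (0.976 to 2.70) included 1. miR-34b-3p stood at 10.9 TPM in V2a, 11.5 TPM in motoneurons and 0.721 TPM in V3. V2a and motoneurons did not differ beyond counting error (0.945, 0.611 to 1.47), while the motoneuron over V3 ratio was 16 (5.10 to 80.8) and the V2a over V3 ratio 15.1 (4.88 to 75.8). The V3 value rests on 3 reads. With totals without the 5 most abundant miRNAs, the small differences turned, to a miR-34b-3p V2a over motoneuron log2 ratio of 0.54 and a miR-34c-3p motoneuron over V3 log2 ratio of -0.14. miR-34b-3p was the 1 member at least 4-fold lower in V3 than in both other libraries, against 2.28% of the 1010 miRNAs, on the log2(TPM + 1) scale. With a pseudocount of 10 its log2 ratios over V3 were 0.96 for V2a and 1.01 for motoneurons, which ends that call. On the log2(TPM + 1) scale no member was at least 4-fold lower in V2a (0.891% of the 1010), higher in motoneurons (2.08%), lower in motoneurons (0.99%) or higher in V3 (1.19%) than in both other libraries, with miR-34a-5p and miR-449c-5p below 10 reads and not counted.

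miR-34b-5p stood at 2.59 TPM in V2a, 0.271 TPM in motoneurons and 0.235 TPM in V3. These are 12 reads in V2a and 1 read each in motoneurons and V3, with V2a over motoneuron and V2a over V3 intervals of 1.40 to 406 and 1.64 to 475. In V2a its value was 12.2 reads and not a whole number, so its level is uncertain, as is that of miR-34a-5p in V3 at 2.13 reads. Together miR-34b-5p and miR-34c-5p summed to 195 TPM in V2a, 143 TPM in motoneurons and 76.5 TPM in V3. miR-34a-5p stood at 1.78 TPM in V2a, 1.69 TPM in motoneurons and 0.512 TPM in V3, from 8, 6 and 2 reads, and the intervals of its 3 ratios all included 1.

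**Figure D3:**
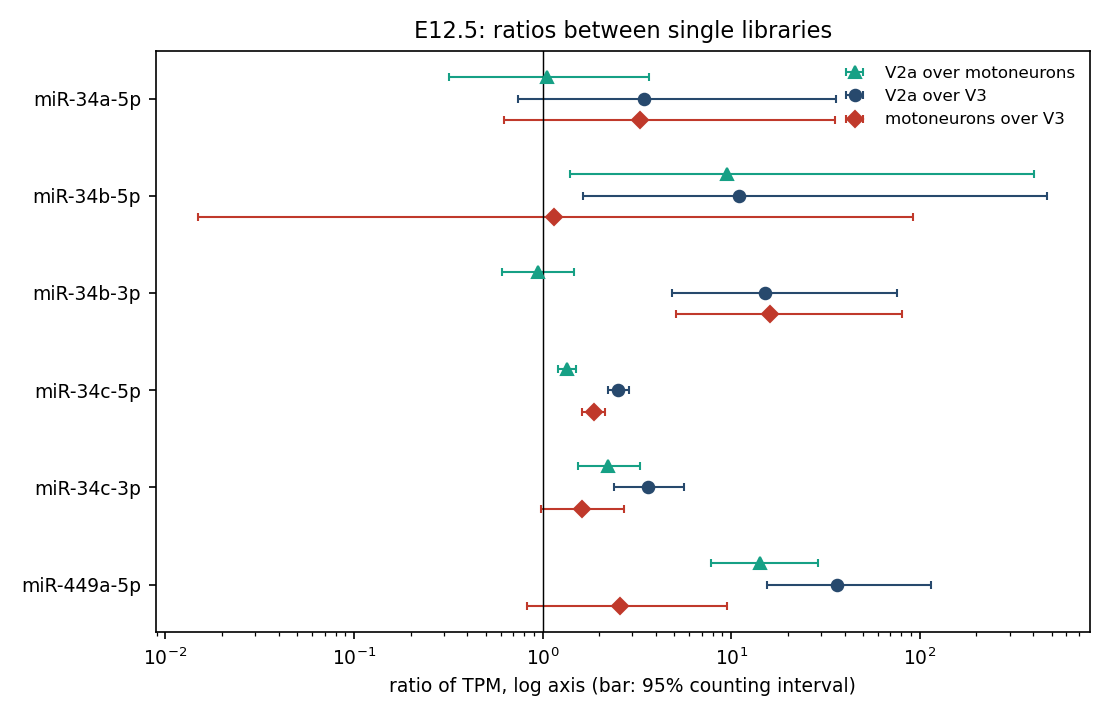
Ratios of TPM between pairs of E12.5 libraries for the 6 members with reads (horizontal log axis, bars are 95% counting intervals), with 1 symbol for each pair. miR-449a-5p has V2a ratios of 14.2 and 36.6, and miR-34b-3p has ratios over V3 of 15.1 and 16 beside a V2a over motoneuron ratio of 0.945.

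The balance between the 2 strands of Mir34b differed between the stages, as the paired capitals in the hairpin above allow to follow. The 5p over 3p ratio, corrected for length, was 0.238 in V2a, 0.0235 in motoneurons and 0.326 in V3 at E12.5, against 14.3 and 9.10 in motoneurons and 14.6 and 12.2 in non-motoneurons at E10.5. The V3 interval, 0.00607 to 3.97, included 1, and those of V2a (0.113 to 0.447) and motoneurons (0.000577 to 0.137) did not reach it. For Mir34c the 5p strand led in every library, with ratios of 7.64 in V2a, 12.6 in motoneurons and 10.9 in V3 at E12.5, against 31.4 and 37.5 in motoneurons and 51.4 and 39.8 in non-motoneurons at E10.5. The stages were deposited in separate tables in different units, so stage and table cannot be told apart.

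Many hairpins differed in this way between the tables. Of 148 hairpins with at least 10 reads of each strand in each table, 31 had the other strand in the lead, and the median size of the change in the log2 ratio was 1.64. For Mir34b the log2 ratio was -2.73 at E12.5 and 3.68 at E10.5, a change of -6.41, which ranked 6 by size among the 148. For Mir34c it was 3.21 at E12.5 and 5.36 at E10.5, a change of -2.15, which ranked 53.

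**Figure D4:**
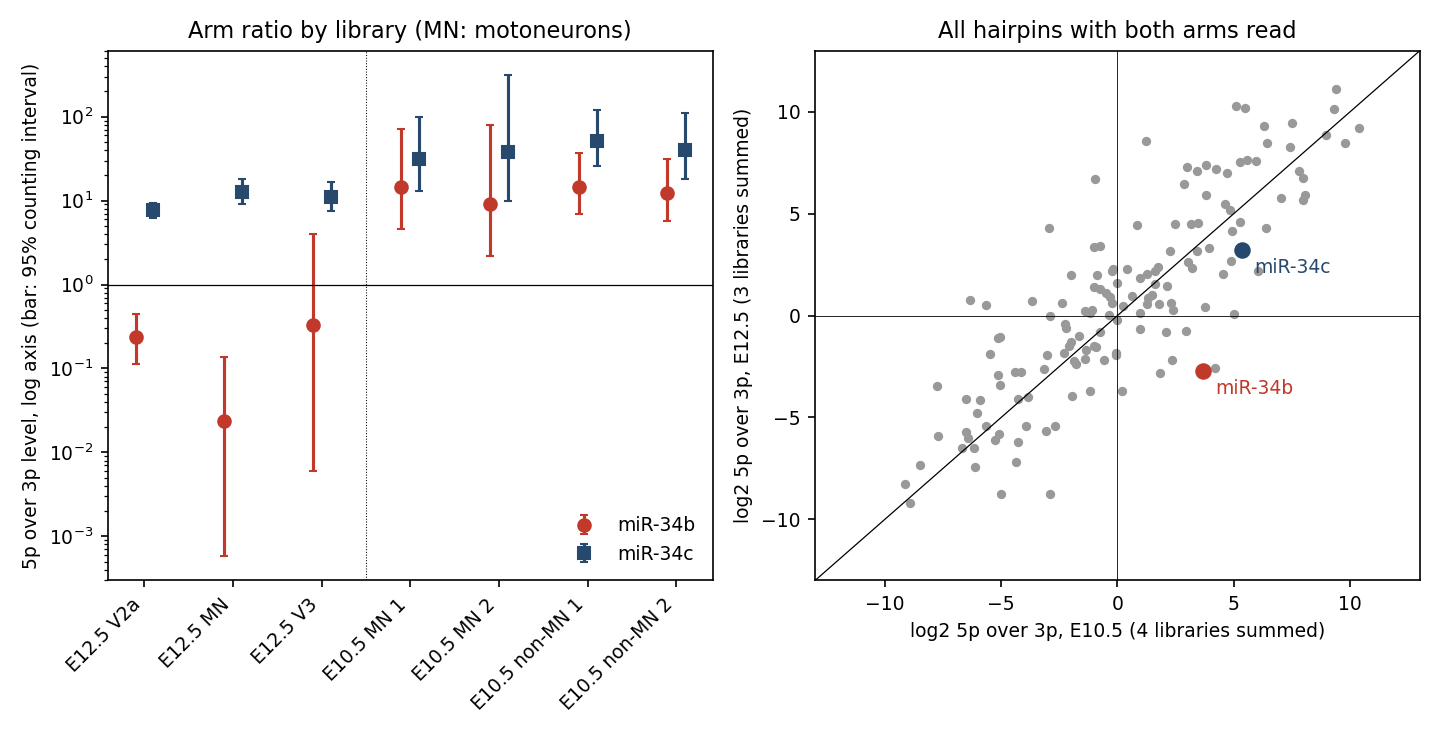
Left, 5p over 3p level of Mir34b (circles) and Mir34c (squares) in each library on a log axis, with 95% counting intervals as bars and a dotted line between the tables. Right, log2 5p over 3p at E12.5 against E10.5 for 148 hairpins, with reads summed over the libraries of a table, where miR-34b lies at -2.73 and 3.68, far below the diagonal of equal ratios.

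The miRNAs whose pattern over the 7 libraries was most like that of miR-34c-5p were miR-140-3p, miR-532-5p, miR-494-3p, miR-679-5p and miR-19a-3p, out of 482 with at least 10 reads in a library of each table. Likeness was the Euclidean distance of log2(level + 1) after each table was centred on its own mean. The distances were 0.26 for miR-140-3p, 0.40 for miR-532-5p, 0.50 for miR-494-3p, 0.50 for miR-679-5p and 0.56 for miR-19a-3p, which shares reads with other rows. miR-140-3p, the nearest, stood at 1482 and 1206 RPM in motoneurons, against 3659 and 3423 RPM in non-motoneurons, and at 157 TPM in V2a, 137 TPM in motoneurons and 75.3 TPM in V3. miR-34b-5p, from the neighbouring hairpin of miR-34c-5p, ranked 21 in likeness to it, at a distance of 0.91. No miRNA came as near to miR-449a-5p, whose closest were miR-24-2-5p at 2.85, miR-322-5p at 2.97, miR-540-5p at 2.97, miR-675-5p at 3.01 and miR-23a-3p at 3.03, with miR-34b-5p ranked 7 and miR-34c-5p ranked 34. Of these, miR-24-2-5p and miR-23a-3p share reads with other rows. The miR-449a-5p pattern includes the V2a value on which the family was picked. At E10.5 it rests on 0 reads in motoneurons and on 2 and 13 in non-motoneurons, so its large distances are not read as a result. miR-34a-5p had too few reads for this measure.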

How the data were processed

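Cells were sorted from papain-dissociated spinal cords and small RNA libraries were made with a NEBNext kit, per the labels' protocols. The aligner was Bowtie2, per the submitters' processing notes; which program counted reads, on which build and annotation, is not given in the sources used here. RPM fill the authors' E10.5 table, with each library summing to 1000000. The authors' E12.5 table gives values without a unit, which were read as FPKM, because low values fell on whole multiples of a step that scaled as 1 over the mature length. Within 0.05, 97.3% to 100% of low values (up to 20 reads) were whole at E10.5 in single-row bundles, against 76.0% to 81.9% at E12.5. Read numbers come from these steps, and 22 nt was taken for the 305 rows without a RefSeq sequence, miR-34c-5p among them. FPKM were rescaled to TPM. All 7 members lie in single-row bundles.

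Motoneurons and non-motoneurons at E10.5 were tested on log2(RPM + 1) in limma 3.58.1 (R 4.3.3), two-sided, with a mean-variance trend and Benjamini-Hochberg adjustment over all miRNAs with 15.2 RPM or more, equal to 10 reads in a library of median depth, in 2 or more libraries. The procedure was tested on simulated data. With values scaled by the drawn depth, the mean share of false calls stayed within the threshold. With the same draws rescaled to totals, as RPM are, it was well above the threshold, and after the median of ratios or TMM it was within it again. The first version of the test used totals and failed, which led to the others. The deposited RPM are rounded to 2 decimals and some rows hold fractions of reads, so no count test was run. E12.5 has 1 library a population and no test. Ratios have exact 95% counting intervals. Alternatives were scaling, pseudocount, filter, trend, a replicate block and leaving out each library. Named miRNAs are all members, the other strands of their hairpins, 11 p53-linked miRNAs, the marker lists and the 5 nearest patterns. The members and lists were chosen with earlier results of these data known. Replicates of a group differed beyond sampling noise (chi-square per degree of freedom 10.6 in motoneurons and 14.4 in non-motoneurons).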

Additional observations from a re-analysis of the deposited data

How the results depend on the processing

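miR-34c-5p and miR-34b-5p stayed lower in E10.5 motoneurons and past the threshold in all 13 alternative settings each, with log2 fold changes of -1.66 to -1.11 (limma adjusted p 0.00117 to 0.0205) and -1.94 to -1.31 (0.00439 to 0.0282). Leaving out 1 library gave -1.66 to -1.30 for miR-34c-5p and -1.94 to -1.41 for miR-34b-5p. The count of miRNAs higher in motoneurons was 57, against 105 with totals without the 5 most abundant miRNAs, 34 with only rows at 0 removed, and 27 to 48 without 1 library (29 and 27 without motoneuron replicates 1 and 2), where the lone library is assumed to vary like the other group. The count of lower miRNAs was 151, and 106 to 125 without 1 library. With the replicate number as a block (replicate block), the counts were 67 higher and 162 lower, and the adjusted p were 0.00304 for miR-34c-5p and 0.0102 for miR-34b-5p. Same-numbered libraries deviated together (r = 0.26 over 492 miRNAs), but the labels do not say what the numbers share. They were alike in depth. Replicate 1 held 802724 reads in motoneurons and 777494 in non-motoneurons, and replicate 2 held 493228 and 538631. The part of depth was not tested.

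At E12.5, a pseudocount of 10 lowered the miR-449a-5p log2 ratio over motoneurons to 2.04, against 3.46 with 1, and over V3 to 2.27, against 4.35, since its motoneuron and V3 values are below 10 TPM. The order of populations stayed for 4 of 6 members with the median of ratios, the exceptions being miR-34a-5p and miR-34b-5p, and for 3 of 6 with totals without the 5 most abundant miRNAs, a setting added for the order after seeing the data. With those totals, the miR-34c-3p motoneuron over V3 log2 ratio was -0.14, against 0.62, and the miR-34b-3p V2a over motoneuron ratio 0.54, against -0.08. The cause was not tested. The values of miR-34a-5p, of the miR-449 strands at E10.5 and of miR-34b-5p at E12.5 rest on few reads.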

Other observations

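miR-449a-5p and miR-449c-5p, whose hairpins share 1 intron of Cdc20b, are given here side by side. At E12.5 miR-449a-5p had 198 reads in V2a, the value on which the family was picked, 11 in motoneurons and 5 in V3, and miR-449c-5p had 0 in all 3. At E10.5 the 2 strands had 13 and 8 reads in non-motoneuron replicate 2, 2 and 5 reads in replicate 1, and 0 in motoneurons. Stage, cell population and table cannot be told apart here.

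Among the 148 hairpins with at least 10 reads of each strand in each table, the strand balance moved most between the tables for miR-505, miR-466h, miR-485 and miR-540, with log2 5p over 3p changes of 7.69, 7.34, 7.24 and 7.09, and miR-30e with -6.74. They were chosen after their values were seen. miR-30e shares reads with other rows.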
